A study of Homo sapiens with 41 samples.

Results

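The proteasome genes described here are the 44 genes that encode subunits of the proteasome, its activators and its inhibitor, and its dedicated assembly chaperones under symbols from PSMA to PSMG. They were taken as every symbol made of PSM, a letter from A to G and a number, without PSMB8 and PSMB9, listed in all 6 tables of normalised reads and with a mean of at least 10 normalised reads in each. Of 46 matching symbols 44 passed in every table, while PSMA8 and PSMB11 stayed below the mean of 10 in all of them and were not tested. The 44 genes were analysed among 13451 to 14069 genes tested per table, out of 23588 gene symbols listed in any table. The choice used names and mean level over all libraries of a table, not the response to drug.

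The proteasome is the protease that degrades most short-lived and damaged proteins of the cell after they have been tagged with ubiquitin. Its 20S core is a barrel of outer alpha rings, which gate the entrance, and inner beta rings, which hold the catalytic sites. The 19S cap sits on the end of the barrel, where a ring of ATPases unfolds the substrate and a lid removes the ubiquitin chain, and other activators can take the place of the cap. In human cells the transcription factor NFE2L1 is known to raise most subunit genes together when proteasome activity is blocked. Interferon is known to replace the catalytic beta subunits by the inducible ones PSMB8, PSMB9 and PSMB10.

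RNA was sequenced from 41 samples in 15 groups, to follow drug-sensitive cancer cells under an inhibitor of their driver kinase and drug-resistant cells in different tumours. The culture groups were whole-cell RNA of human lines in medium with 2% serum. A375 melanoma cells were given vemurafenib, a BRAF inhibitor, at 0.1 µM for 6 h or 48 h, or vehicle (3 libraries each). Colo800 and UACC62 melanoma cells were given vemurafenib at 1 µM for 48 h or vehicle (2 libraries each). H3122 lung adenocarcinoma cells were given crizotinib, an ALK inhibitor, at 0.3 µM for 48 h or vehicle (2 libraries each). The labels give no time for vehicle cultures. The tumour groups were subcutaneous xenografts in mice, sampled as ribosome-bound RNA pulled down from cells that carry tagged RPL10a. A375 tumours had received 10 doses of vemurafenib at 75 mg/kg or vehicle (4 libraries each). Tumours of A375R, the vemurafenib-resistant line, were read from the sample titles as A375R cells alone or A375R cells mixed with A375 cells, each under the same vemurafenib course or vehicle (3 libraries each). The titles of both kinds name A375R next to RPL10a, but the labels do not state outright which cells of mixed tumours carried the tag. The strain and age of the mice are not given in the sources used here.

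Levels are the normalised reads deposited in each table, and a log2 change is the difference in log2(normalised reads + 1), drug over vehicle, with its standard error (SE) from limma. A gene is said to have risen or fallen where the two-sided p-value of limma, adjusted over all genes of the table by Benjamini-Hochberg, was under 0.05. Normalised reads are relative to the other genes of a library, and a lower level per cell and fewer cells with the transcript cannot be told apart in these bulk samples. The tables were normalised separately, so levels of different tables shown together are not a comparison.

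Promoter sequences are shown for PSMD14, PSMC3, PSMD12 and PSMD11, which fell in all 4 cultures, and for PSMB10, which rose in 3 of the 4 cultures. These 5 genes were chosen after their values were seen. Each is the stretch from 250 bases before to 50 bases after the transcription start, from RefSeq on GRCh38.p14, written 5′ to 3′ on the strand of the gene: PSMD14 at chr2:161308175-161308474 on the + strand, PSMC3 at chr11:47426390-47426689 on the - strand, PSMD12 at chr17:67366528-67366827 on the - strand, PSMD11 at chr17:32444260-32444559 on the + strand and PSMB10 at chr16:67936801-67937100 on the - strand. Capitals mark matches to any of the 5 motifs named below, on either strand.
PSMD14: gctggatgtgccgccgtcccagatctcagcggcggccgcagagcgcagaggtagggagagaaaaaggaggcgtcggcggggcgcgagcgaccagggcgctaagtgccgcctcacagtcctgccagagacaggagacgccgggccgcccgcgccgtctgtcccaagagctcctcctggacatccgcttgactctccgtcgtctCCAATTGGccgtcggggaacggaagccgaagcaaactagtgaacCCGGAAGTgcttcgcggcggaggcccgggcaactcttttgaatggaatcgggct
PSMC3: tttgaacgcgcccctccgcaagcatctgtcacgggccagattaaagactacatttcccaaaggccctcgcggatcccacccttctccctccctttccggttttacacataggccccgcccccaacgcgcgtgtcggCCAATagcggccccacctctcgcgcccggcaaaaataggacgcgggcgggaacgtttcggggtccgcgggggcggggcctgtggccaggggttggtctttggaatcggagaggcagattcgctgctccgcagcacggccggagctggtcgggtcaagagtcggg
PSMD12: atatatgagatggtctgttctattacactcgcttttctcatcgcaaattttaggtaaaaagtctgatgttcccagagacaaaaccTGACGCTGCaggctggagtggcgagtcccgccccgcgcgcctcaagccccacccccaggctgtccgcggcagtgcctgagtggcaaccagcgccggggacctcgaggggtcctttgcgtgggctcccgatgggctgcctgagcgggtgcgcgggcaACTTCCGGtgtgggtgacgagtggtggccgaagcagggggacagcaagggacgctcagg
PSMD11: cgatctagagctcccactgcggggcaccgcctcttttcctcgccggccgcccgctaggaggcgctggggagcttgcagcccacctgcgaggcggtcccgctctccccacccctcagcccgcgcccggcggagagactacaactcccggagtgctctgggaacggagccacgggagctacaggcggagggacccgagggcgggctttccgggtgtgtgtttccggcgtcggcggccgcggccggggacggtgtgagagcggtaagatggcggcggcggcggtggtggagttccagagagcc
PSMB10: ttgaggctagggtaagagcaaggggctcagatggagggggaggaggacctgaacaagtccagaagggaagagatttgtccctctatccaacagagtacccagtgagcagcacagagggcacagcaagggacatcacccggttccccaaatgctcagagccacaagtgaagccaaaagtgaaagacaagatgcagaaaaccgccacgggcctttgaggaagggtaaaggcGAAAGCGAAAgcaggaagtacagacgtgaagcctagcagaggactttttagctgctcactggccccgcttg
Of the 44 genes 38 had such a window, and of the others PSMA7, PSMB1, PSMB6, PSMB7, PSMD4 and PSMG3 are named only. The search covered both strands with 5 motifs. The ETS site CCGGAAGT, reverse ACTTCCGG, was in 23.7% of these 38 genes and in 4.95% of the 27305 genes with a window. The core of the interferon response element, searched as a pair of GAAA repeats with 2 bases between them, was in 15.8%, against 4.38% of all genes. The core of the antioxidant response element, TGACNNNGC, which NFE2L1 and NFE2L2 bind, was in 36.8%, against 16.1%. The CCAAT box was in 47.4%, against 39.7%, and the E-box CACGTG in 7.89%, against 8.77%. PSMD14 held an ETS site and a pair of CCAAT boxes that overlap on opposite strands, PSMC3 a CCAAT box, PSMD12 an antioxidant and an ETS match and PSMB10 an interferon match. PSMD11, which fell in all 4 cultures, held none of the 5. A match is a description of these letters and not a bound site.

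Recovered depth was 8063754 to 42843612 reads per library. In A375 tumours 1 vehicle library, replicate 3, had 25467614 reads and the other vehicle libraries at most 9452652. The drug response showed in SPRY4 and DUSP6, feedback genes of the MAPK pathway, which fell in all 6 drug groups of the drug-sensitive lines. The log2 change of SPRY4 was -4.69 at 6 h and -4.95 at 48 h in A375 culture, -6.42 in Colo800, -8.16 in UACC62, -2.59 in H3122 and -4.31 in A375 tumours. MKI67, a proliferation marker, had log2 changes of -3.24 in A375 culture at 48 h, -4.28 in Colo800, -8.60 in UACC62, -0.39 in H3122 and -1.33 in A375 tumours, all of them past the threshold. In A375 culture at 6 h its log2 change was 0.26 (adjusted p = 0.73). The summed level of 8 melanocyte genes was higher under vemurafenib in the melanoma cultures at 48 h and in A375 tumours, though not every gene followed. In UACC62 S100B alone of the 8 was lower, at 2917 and 2499 normalised reads under vemurafenib and 7618 and 7673 under vehicle. In A375 culture, where 6 of the 8 reached a mean of 10, the sum was 9473 to 11903 normalised reads under vehicle, 6504 to 8086 at 6 h and 14176 to 16860.2 at 48 h. SOX10 made up most of that sum and overlapped between 48 h (8881 to 10900) and vehicle (8722 to 10858). DCT had 2539 to 3636 at 48 h and 2.17 to 3.15 under vehicle, and MITF and S100B were also higher at 48 h. In A375 tumours, where 3 of the 8 reached a mean of 10, the sum was 9261 to 10657 normalised reads under vemurafenib and 1201 to 1777 under vehicle, with TYR and DCT at 0 in vehicle tumours. In H3122 the summed level of 8 lung epithelial genes, of which 7 reached a mean of 10, was 72986 to 77006 under crizotinib and 116751 to 136872 under vehicle. KRT8, KRT18 and KRT19 made up most of that sum and were lower under crizotinib. EPCAM and CDH1 overlapped between groups. NKX2-1, at 7244 and 7336 normalised reads under crizotinib and 3149 and 3422 under vehicle, and NAPSA were higher. The part of these shifts in the results on the proteasome genes was not tested.

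The 44 genes together took a smaller mean share of the reads under drug in all 4 cultures at 48 h and in A375 tumours. In A375 culture they took 0.789% ± 0.0707 of the reads under vehicle, 0.817% ± 0.0118 at 6 h of vemurafenib and 0.590% ± 0.0308 at 48 h (SD, n = 3 each). The share was 0.594% ± 0.0139 in vemurafenib-treated Colo800 cells and 0.764% ± 0.00443 in vehicle cells (SD, n = 2 each). It was 0.581% ± 0.0607 in vemurafenib-treated UACC62 cells and 0.631% ± 0.00632 in vehicle cells, where the higher treated library, at 0.624%, lay close to the lower vehicle library, at 0.626%. H3122 cells gave 0.820% ± 0.0343 under crizotinib and 1.03% ± 0.0715 under vehicle. A375 tumours gave 0.451% ± 0.0112 under vemurafenib and 0.541% ± 0.0251 under vehicle (SD, n = 4 each). Tumours of A375R alone went the other way, with 0.658% ± 0.0595 under vemurafenib and 0.541% ± 0.0218 under vehicle, and mixed tumours had 0.586% ± 0.0280 and 0.607% ± 0.0119 (SD, n = 3 each). The summed normalised level of the 44 genes did not follow the share in every tumour group. In A375 tumours it was 71832 ± 4152 normalised reads under vemurafenib and 71745 ± 5024 under vehicle (SD, n = 4 each), and in mixed tumours 206848 ± 2678 and 187289 ± 14715 (SD, n = 3 each). Shares and sums are given as descriptions, with no test.

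**Figure D1:**
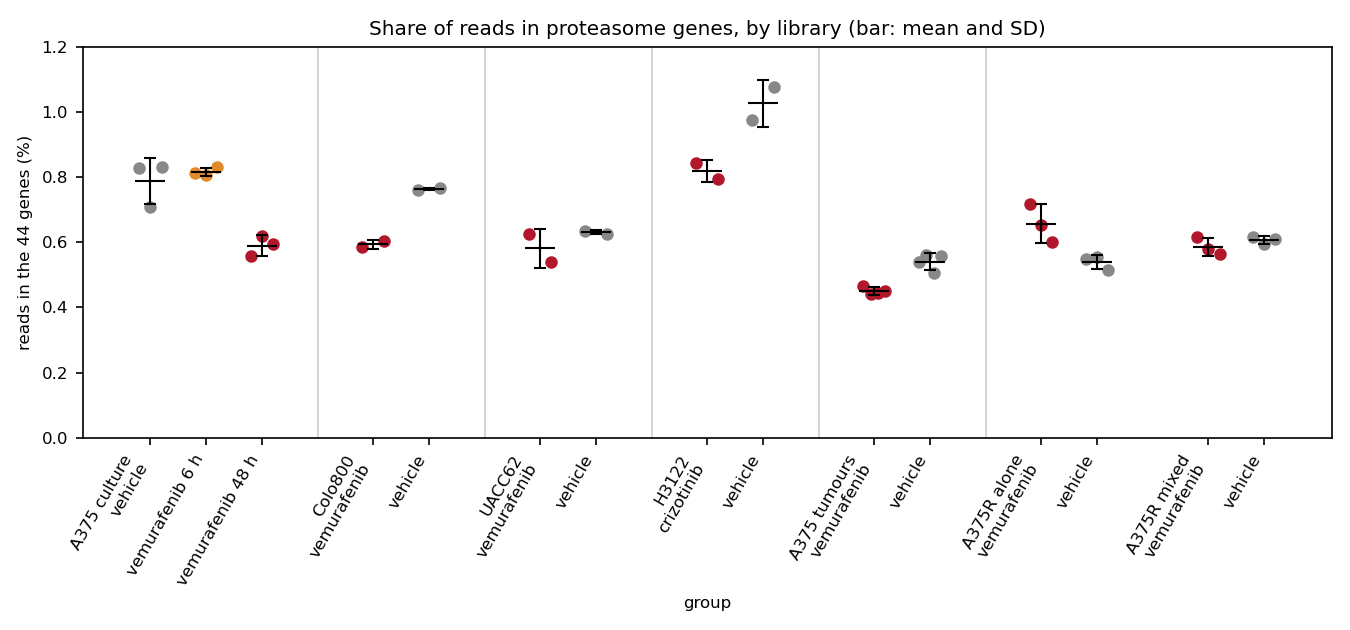
Percent of all reads of a library that fell in the 44 proteasome genes (vertical axis, from 0), by group, with each point a library, the long bar the group mean and the whiskers its SD, and grey lines between separately normalised tables. A375 cultures sit at 0.557% to 0.618% after 48 h of vemurafenib and at 0.708% to 0.832% under vehicle, without overlap.

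After 6 h of vemurafenib no proteasome gene had passed the test in A375 culture, although SPRY4 and DUSP6 had already fallen. Limma called 0 of 44 genes, against 4.40% of all genes tested, and also 0 at an unadjusted p under 0.05, and edgeR and DESeq2 called 0 as well. With replicate number added to the limma fit as a block, it called 0 of 44 again, against 10.6% of all genes. Log2 changes ran from -0.26 for PSMB7, a catalytic beta subunit, to 0.15 for PSMF1, which encodes the inhibitor PI31, with a median of -0.06, or 0.04 after quantile normalisation. PSMD14, the lid subunit that cuts the ubiquitin chain off the substrate, had 1664, 1436 and 1596 normalised reads at 6 h, against 1856, 1527 and 1825 under vehicle. These groups overlap, and the log2 change was -0.15 ± 0.15 (SE, limma adjusted p = 0.679). PSMB10, the inducible form of the trypsin-like catalytic subunit, had 302, 409 and 414 normalised reads at 6 h, against 369, 321 and 391 under vehicle, which also overlap.

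After 48 h of vemurafenib almost the whole proteasome had fallen in A375 culture. Of 44 genes 36 fell, against 25.6% of all genes tested, and only PSMB10 rose, against 24.3%. The median log2 change was -0.58 over the 44 genes and -0.00 over all genes, and the middle of the 44 lay between -0.67 and -0.41. All 7 alpha subunits, 7 of 8 beta subunits, all 6 ATPases and all 8 lid subunits tested fell. Every 48 h library lay below every vehicle library for 37 of the 44 genes, against 30.2% of all genes. Against the 6 h libraries the 48 h ones had 32 genes lower and 1 higher, with 19.7% and 19.6% of all genes called in these directions. The 6 h and 48 h groups share their vehicle libraries.

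PSMD14 had the largest fall in A375 culture. It had 575, 817 and 764 normalised reads at 48 h, against 1856, 1527 and 1825 under vehicle. Every 48 h library lay below every vehicle library, with means of 719 ± 127 and 1736 ± 182 (SD, n = 3 each) and a log2 change of -1.28 ± 0.15 (SE, limma adjusted p = 5.75e-05). PSMD12, a scaffold subunit of the lid, had 626, 571 and 605 normalised reads at 48 h, against 1717, 1167 and 1409 under vehicle, again without overlap, and a log2 change of -1.23 (limma adjusted p = 7e-05). PSMG3, which with PSMG4 helps to seat alpha subunits in the growing ring, had 340, 433 and 356 normalised reads at 48 h, against 938, 726 and 948 under vehicle. Its log2 change was -1.21 (limma adjusted p = 6.63e-05), close to that of PSMD12. PSMC3, an ATPase of the cap, had 1059, 1269 and 1159 normalised reads at 48 h, against 2819, 1986 and 2527 under vehicle, and fell by 1.06 ± 0.14 (SE) on the log2 scale. The second vehicle library was the lowest of the vehicle libraries for PSMD14, PSMD12, PSMG3 and PSMC3, yet above every 48 h library for each of them.

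The catalytic subunits of A375 culture moved in both directions. PSMB5, the chymotrypsin-like subunit that proteasome inhibitors used in the clinic bind, had 1444, 1641 and 1593 normalised reads at 48 h, against 2205, 1811 and 2444 under vehicle. The groups did not overlap, but the gap to the lowest vehicle library was small, and the log2 change was -0.46 ± 0.13 (SE, limma adjusted p = 0.0113). PSMB6, the caspase-like subunit, and PSMB7, the trypsin-like one, fell by 0.66 and 0.58 on the log2 scale. PSMB10, which takes the place of PSMB7 in the immunoproteasome, had 773, 913 and 864 normalised reads at 48 h, against 369, 321 and 391 under vehicle. All 48 h libraries lay above all vehicle libraries, with means of 849.9 ± 70.8 and 361 ± 36.0 (SD, n = 3 each) and a log2 change of 1.24 ± 0.15 (SE, limma adjusted p = 9.05e-05). PSME1, which with PSME2 forms the interferon-inducible PA28 activator, overlapped between groups with a log2 change of 0.27 (adjusted p = 0.176), while PSME2 fell by 0.42 (adjusted p = 0.0231). Besides PSME1, the genes that did not pass were PSMD4, PSMD9, PSMD10, PSME4, PSMF1 and PSMG2, with log2 changes of -0.13 to -0.29.

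**Figure D2:**
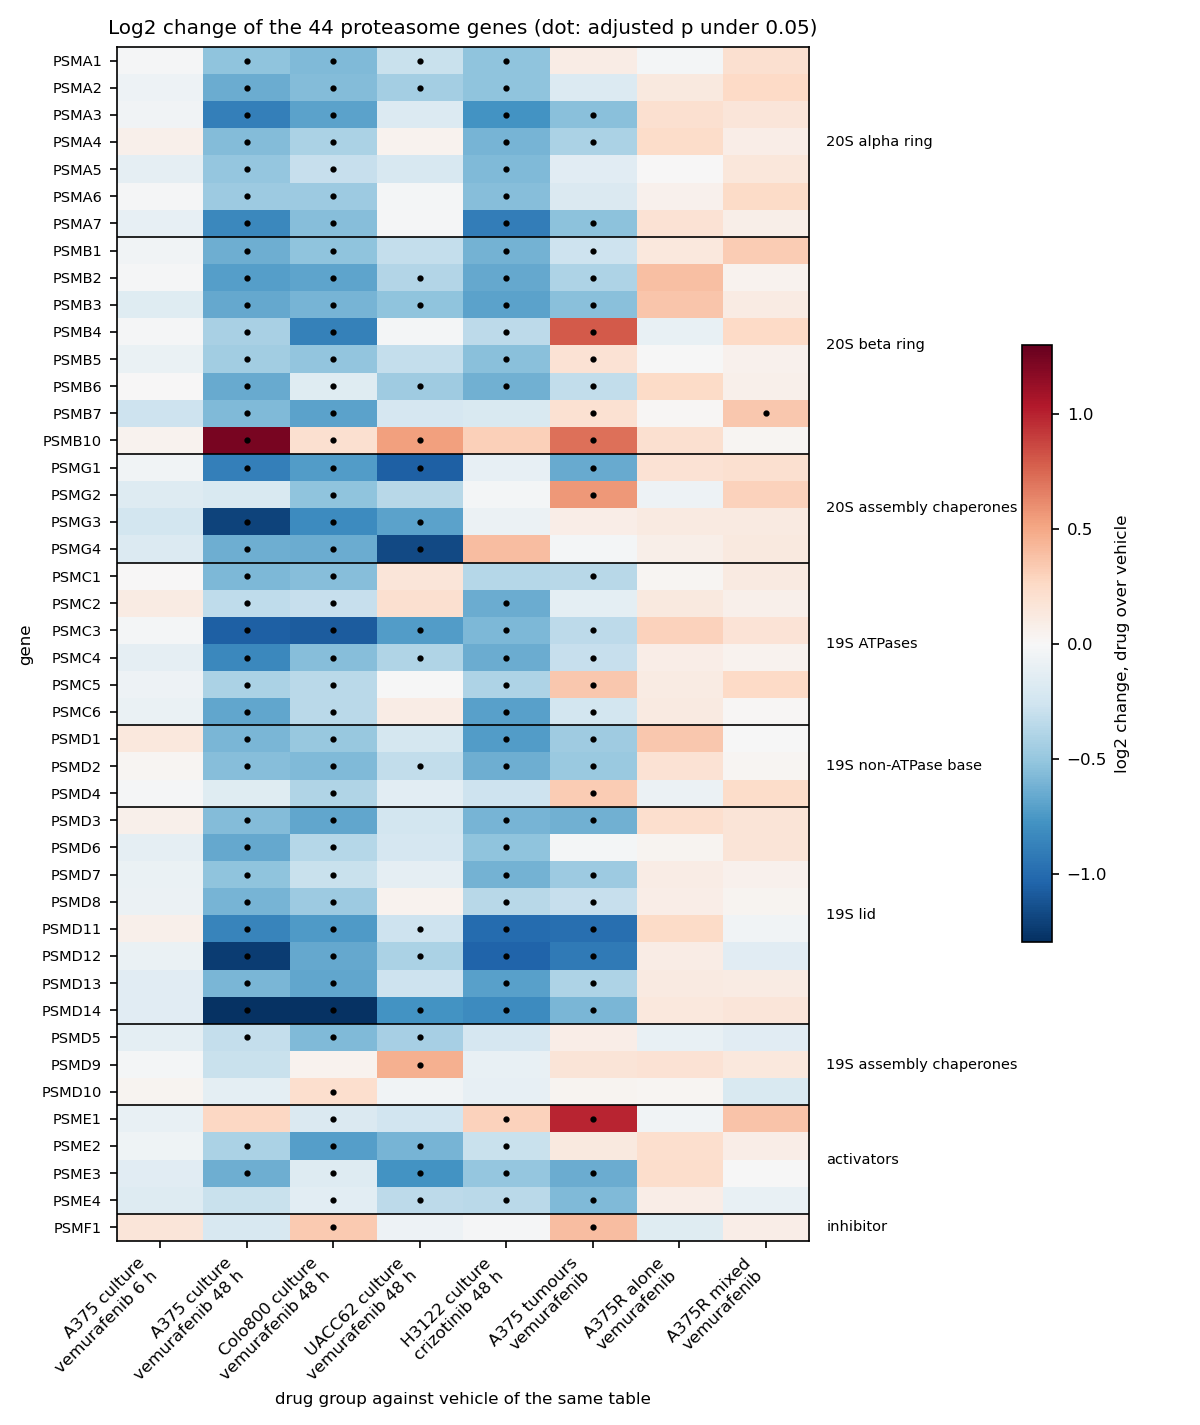
Log2 change of each of the 44 genes (rows, ordered by role) in 8 comparisons of drug with vehicle (columns), red for higher and blue for lower under drug, with a dot where limma's adjusted p was under 0.05. Blue fills most of the 4 columns of cultures at 48 h, the 6 h column is pale, A375 tumours mix both colours, and the A375R columns are pale red with a single dot at PSMB7.

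In Colo800 the fall took in nearly every gene. Of 44 genes 40 fell, against 37.3% of all genes tested, 3 rose, against 36.0%, and PSMD9, an assembly chaperone of the cap, did not pass (log2 change 0.04, adjusted p = 0.646). The median log2 change was -0.53. PSMD14 had 1255 and 1312 normalised reads under vemurafenib, against 3079 and 3189 under vehicle. The treated libraries were far below the vehicle ones, with a log2 change of -1.29 ± 0.04 (SE, limma adjusted p = 1.07e-14). Libraries of the same Colo800 group differed from each other by not much more than counting error, so the p-values in Colo800 rest on a small spread. PSMC3 had 979 and 1051 normalised reads under vemurafenib, against 2172 and 2112 under vehicle, and fell by 1.08 on the log2 scale. PSMB4, a structural beta subunit, had 4428 and 4623 normalised reads under vemurafenib, against 8413 and 8256 under vehicle, and fell by 0.88.

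All 7 alpha and 7 of 8 beta subunits, the 6 ATPases, the 3 non-ATPase subunits of the base, the 8 lid subunits, the 4 activator genes and the 4 chaperones of the core fell in Colo800. The falls of the activator genes were uneven, at 0.71 for PSME2, 0.19 for PSME1, 0.17 for PSME3 and 0.13 for PSME4 on the log2 scale. PSMF1 had 2356 and 2496 normalised reads under vemurafenib, against 1940.0 and 1888 under vehicle, and rose by 0.34 (limma adjusted p = 1.88e-06). PSMD10, the cap chaperone also known as gankyrin, rose by 0.22 (adjusted p = 0.00305). PSMB10 had 417 and 409 normalised reads under vemurafenib, against 338 and 381 under vehicle, and rose by 0.20 ± 0.08 (SE, adjusted p = 0.0293), a smaller change than in A375 culture, though the difference between the lines was not tested.

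In UACC62 the fall was uneven, and the count of genes past the threshold depended on single libraries. Of 44 genes 18 fell, against 29.6% of all genes tested, and 2 rose, against 26.9%. The median log2 change was -0.26. After quantile normalisation 11 fell and 3 rose. The treated libraries differed from each other, with 0.624% of reads in the 44 genes in replicate 1 and 0.538% in replicate 2. Leaving out treated replicate 1 gave 35 genes lower and 2 higher, and leaving out treated replicate 2 gave 24 lower and 9 higher. Leaving out vehicle replicate 1 gave 6 lower and 1 higher, and leaving out vehicle replicate 2 gave 8 lower and 1 higher. In each of these fits the lone library was assumed to vary like the other group.

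PSMG4 and PSMG1, assembly chaperones of the core, had the largest falls in UACC62, while PSMG3 fell by 0.70 and PSMG2 did not pass (log2 change -0.36, limma adjusted p = 0.0655). PSMG4 had 183 and 126 normalised reads under vemurafenib, against 343 and 342 under vehicle, with a log2 change of -1.17 ± 0.18 (SE, limma adjusted p = 0.000605). PSMG1, which pairs with PSMG2 to start the alpha ring, had 372 and 302 normalised reads under vemurafenib, against 665 and 736 under vehicle, and fell by 1.06 ± 0.13 (SE, limma adjusted p = 0.000188). For both genes each treated library lay below both vehicle libraries. PSMD14 had 1360.3 and 1129 normalised reads under vemurafenib, against 2134 and 2129 under vehicle, and fell by 0.78 (limma adjusted p = 0.0004). PSME3, the nuclear PA28-gamma activator, had 2579 and 2628 normalised reads under vemurafenib, against 4519 and 4410.0 under vehicle, and also fell by 0.78 (limma adjusted p = 9.1e-05).

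Of the rings, 2 of 7 alpha subunits, 3 of 8 beta subunits, 2 of 6 ATPases and 3 of 8 lid subunits fell in UACC62, where 29.6% of all genes fell. All of these counts were near that share. PSMB5 had 2415 and 1795 normalised reads under vemurafenib, against 2572 and 2576 under vehicle, and did not pass (log2 change -0.31, limma adjusted p = 0.0841). The vehicle libraries were almost equal and the treated ones were far apart. PSMB6 fell by 0.46, and PSMB7 did not pass (log2 change -0.22, adjusted p = 0.128). PSMB10 had 349 and 276 normalised reads under vemurafenib, against 202 and 226 under vehicle, without overlap, and rose by 0.53 ± 0.15 (SE, adjusted p = 0.0143). PSMD9 rose by 0.46 (adjusted p = 0.021).

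**Figure D3:**
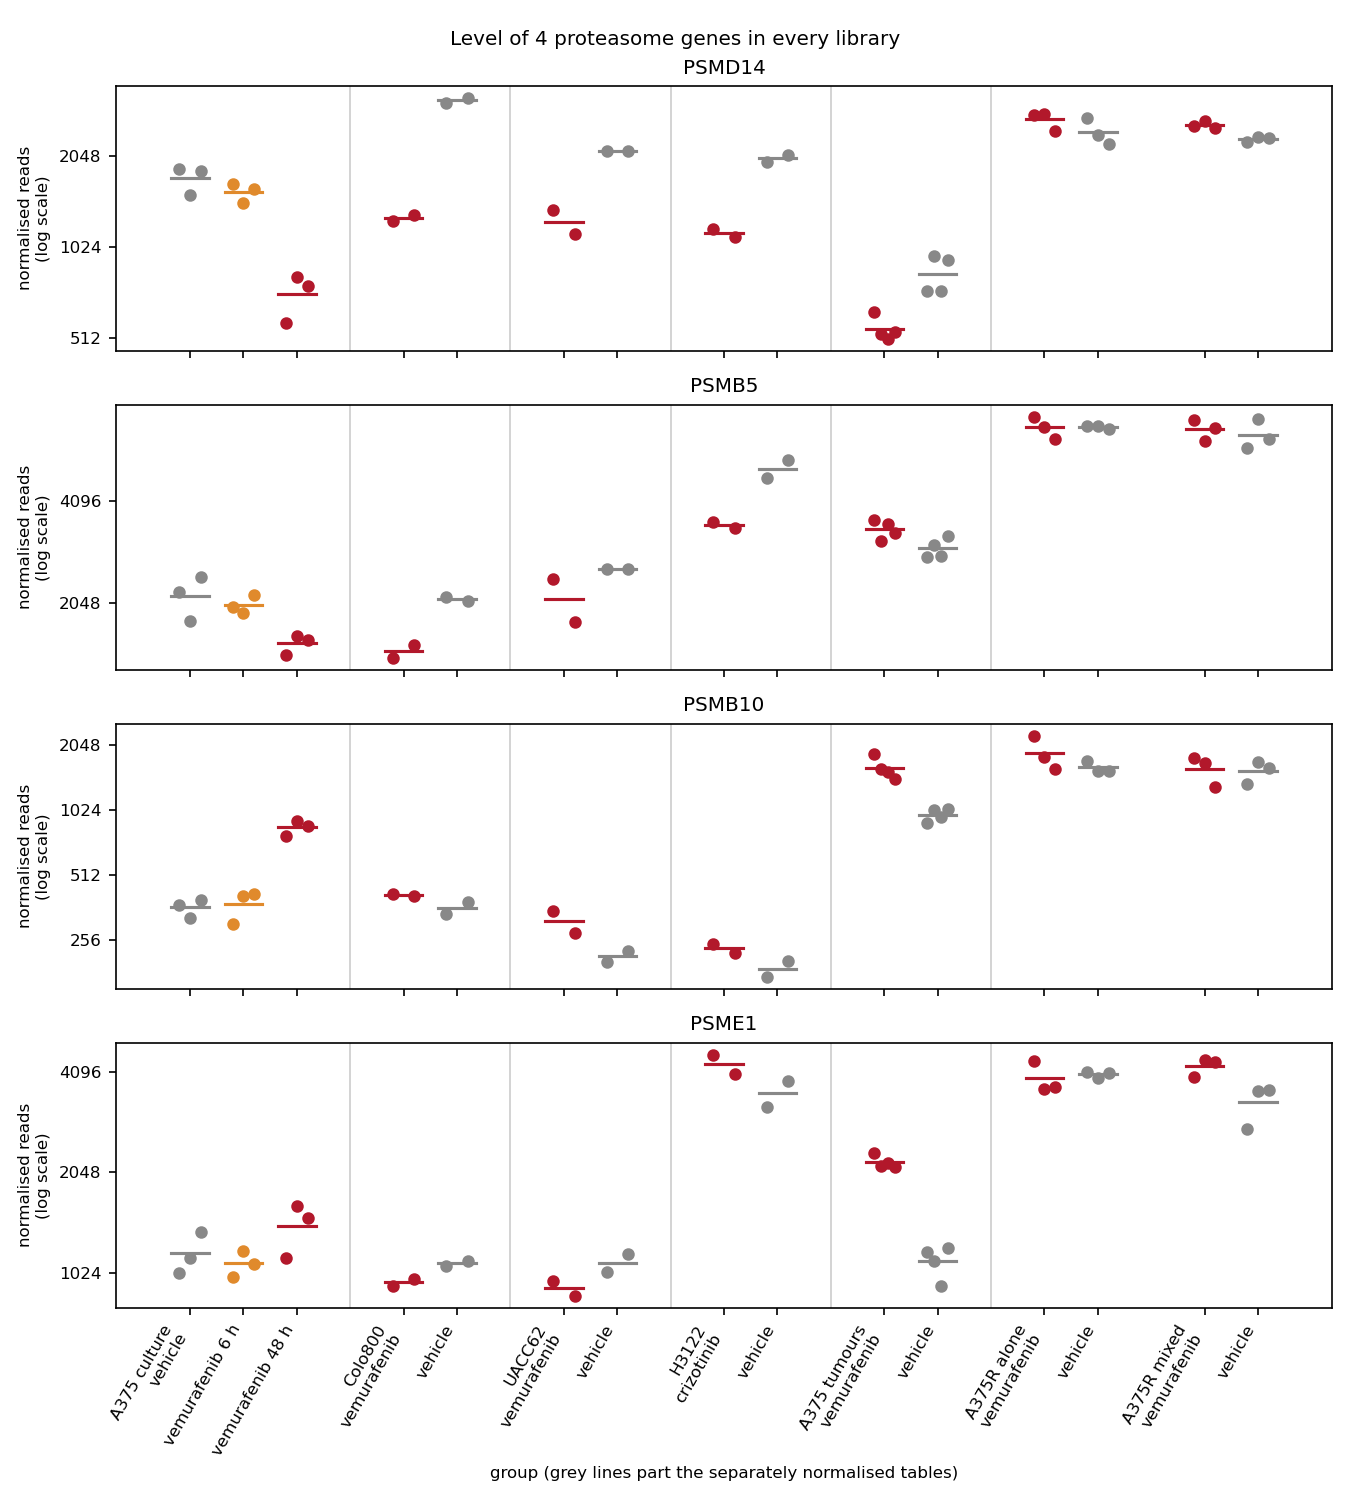
Normalised reads of PSMD14, PSMB5, PSMB10 and PSME1 in every library (points, log axis) with the group mean (bars), in red or orange for drug and grey for vehicle, the tables parted by grey lines because they were normalised separately. PSMD14 lies below vehicle in every 48 h culture and in A375 tumours but not in A375R tumours. PSMB10 lies above vehicle in every 48 h culture and in A375 tumours, though it did not pass the threshold in H3122. PSME1 lies far above vehicle in A375 tumours (log2 change 0.99).

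In H3122, a lung line under an inhibitor of another kinase, 31 of 44 genes fell, against 24.0% of all genes tested, and 1 rose, against 22.1%. The median log2 change was -0.54. The alpha ring (7 of 7), the ATPases (5 of 6) and the lid (8 of 8) fell. None of the 4 assembly chaperones of the core was called by limma. Their log2 changes were -0.11 for PSMG1, -0.02 for PSMG2, -0.07 for PSMG3 and 0.40 for PSMG4 (adjusted p = 0.0507 for PSMG4), whereas 3 of these 4 fell in A375 culture, 4 in Colo800 and 3 in UACC62. Whether they differ between the lines was not tested.

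PSMD12 had 1016 and 902 normalised reads under crizotinib, against 1935 and 2017 under vehicle, and fell by 1.04 ± 0.09 (SE, limma adjusted p = 2.89e-06). PSMD11, the lid subunit next to it in the scaffold, had 516 and 589 normalised reads under crizotinib, against 1102 and 1111 under vehicle, and fell by 1.00 (limma adjusted p = 6.94e-06). PSMA7, an alpha subunit, had 2722 and 2618 normalised reads under crizotinib, against 4635 and 5317 under vehicle, and fell by 0.89 (limma adjusted p = 9.8e-06). In all of these the treated libraries were close to each other and well below both vehicle libraries. PSMD14 had 1173 and 1105 normalised reads under crizotinib, against 1963 and 2066 under vehicle, and fell by 0.82. PSME1 had 4608 and 4049 normalised reads under crizotinib, against 3217 and 3845 under vehicle, and rose by 0.30 ± 0.10 (SE, adjusted p = 0.0325). PSMB5 fell by 0.55 and PSMB6 by 0.63, while PSMB7 (log2 change -0.20, adjusted p = 0.0779) and PSMB10 (0.31, adjusted p = 0.0698) did not pass.

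**Figure D4:**
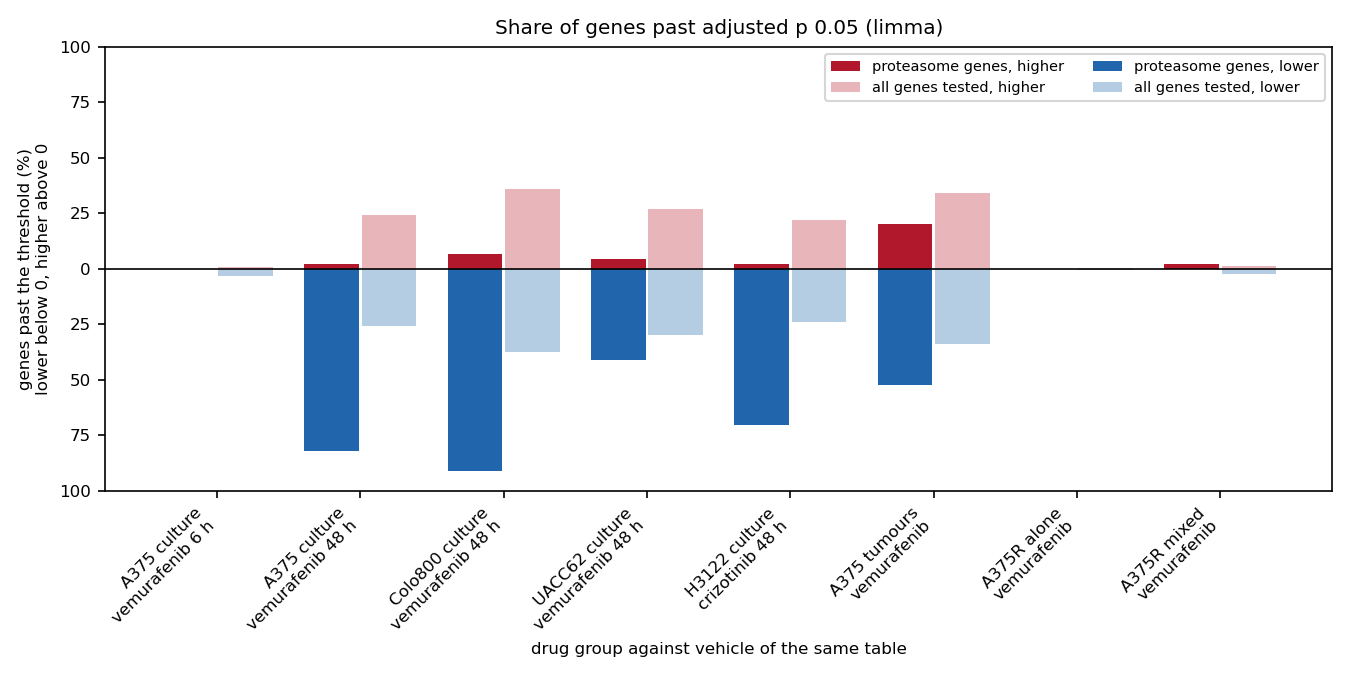
Percent of the 44 proteasome genes (dark bars) and of all genes tested (pale bars) past limma's adjusted p of 0.05 in 8 comparisons of drug with vehicle, higher genes above 0 and lower genes below. The dark blue bars reach 81.8% in A375 culture at 48 h, 90.9% in Colo800, 40.9% in UACC62, 70.5% in H3122 and 52.3% in A375 tumours, and there is no dark bar in A375 culture at 6 h or in A375R alone.

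Set side by side, 13 genes fell in all 4 cultures at 48 h, or 29.5% of the 44, against 9.48% of the 11804 genes tested in all 4 cultures. They were PSMA1 and PSMA2 of the alpha ring, PSMB2, PSMB3 and PSMB6 of the beta ring, the ATPases PSMC3 and PSMC4, the base subunit PSMD2, the lid subunits PSMD11, PSMD12 and PSMD14, and the activators PSME2 and PSME3. In at least 3 of the 4 cultures 35 genes fell, against 21.2% of all genes. PSMB10 was the only one to rise in 3 cultures, where 16.2% of all genes rose in at least 3. PSMB10, PSMD9, PSMD10 and PSMF1 fell in none. The order of the changes was alike between some tables and not others. Across the 44 genes, which are not independent replicates, Pearson's r between log2 changes was 0.69 for A375 culture with Colo800, 0.62 for A375 culture with H3122, 0.54 for A375 culture with UACC62 and -0.01 for UACC62 with H3122. The points share library depth and normalisation within each table, so these values are descriptions.

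In A375 tumours vemurafenib divided the proteasome genes. Of 44 genes 23 fell, against 34.0% of all genes tested, and 9 rose, against 34.2%. The median log2 change was -0.26. The lid fell in 7 of 8 genes, whereas 4 beta subunits rose and the other 4 fell. Every treated library lay above every vehicle library for 6 genes, against 30.9% of all genes, and below for 21, against 30.2%.

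PSME1 rose most in A375 tumours. It had 2341, 2143, 2187 and 2123 normalised reads under vemurafenib, against 1182, 1106, 930.3 and 1215 under vehicle. All treated tumours lay far above all vehicle tumours, with means of 2198 ± 98.4 and 1108 ± 127 (SD, n = 4 each) and a log2 change of 0.99 ± 0.08 (SE, limma adjusted p = 2.14e-08). Its partner PSME2 overlapped between groups (log2 change 0.13, adjusted p = 0.259). PSMB4 had 12521, 11038, 10626 and 10522 normalised reads under vemurafenib, against 6088, 6805, 6075 and 6767 under vehicle, without overlap, and rose by 0.80 (limma adjusted p = 1.42e-07). PSMB10 had 1859, 1595, 1542 and 1426 normalised reads under vemurafenib, against 895, 1021, 947 and 1036 under vehicle, also without overlap, and rose by 0.72 (limma adjusted p = 1.39e-06). PSMG2 had 1030.5, 935, 889 and 900.0 normalised reads under vemurafenib, against 632, 659, 591 and 648 under vehicle, and rose by 0.57 (limma adjusted p = 5.53e-06). The other genes that rose were PSMF1 (0.40), the ATPase PSMC5 (0.35), the ubiquitin receptor PSMD4 (0.33), PSMB7 (0.20) and PSMB5 (0.19). The groups overlapped for PSMD4, PSMB7 and PSMB5.

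The falls in A375 tumours were led by the lid. PSMD11 had 398, 451, 444 and 504 normalised reads under vemurafenib, against 949, 944, 835 and 815 under vehicle, and fell by 0.98 ± 0.09 (SE, limma adjusted p = 5.04e-08). PSMD12 had 382, 360.4, 294 and 345 normalised reads under vemurafenib, against 599.7, 679.6, 621 and 712 under vehicle, and fell by 0.92 (limma adjusted p = 2.41e-07). Neither gene overlapped between groups. PSMD14 had 627, 528, 511 and 538 normalised reads under vemurafenib, against 733, 955, 736 and 932 under vehicle, and fell by 0.60 (limma adjusted p = 6.26e-05). PSMG1 fell by 0.66 and PSME3 by 0.64. PSMB6, the caspase-like subunit, fell by 0.31 ± 0.08 (SE, adjusted p = 0.00323), with 1 vehicle library, replicate 3, inside the range of the treated ones. None of 6 endothelial genes reached a mean of 10 normalised reads in the A375 tumours. The summed level of 7 erythroid, skin and muscle genes, of which 2 reached that mean, was 103 to 234 normalised reads under vemurafenib and 14.6 to 36.0 under vehicle, with HBA1 at 0 in both and HBB at 0 under vehicle. The summed level of 6 fibroblast genes, all past that mean, was 693 to 861 under vemurafenib and 722 to 1240.2 under vehicle. Its members moved in both directions. COL1A2, at 9.42 to 64.6 normalised reads under vemurafenib and 199 to 352 under vehicle, and PDGFRA were lower without overlap. COL3A1, at 308 to 349 under vemurafenib and 32.02 to 98.6 under vehicle, was higher. COL1A1, DCN and LUM overlapped between groups. The summed level of 8 leukocyte genes, of which 3 reached that mean, was 661 to 1039 under vemurafenib and 624 to 822 under vehicle, with CD3E at 0 in treated tumours. CD68 made up most of that sum and rose by 0.49 on the log2 scale, while CSF1R, at 5.08 to 9.01 normalised reads under vemurafenib and 78.6 to 129.5 under vehicle, and LYZ fell. Their part in the result was not tested.

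**Figure D5:**
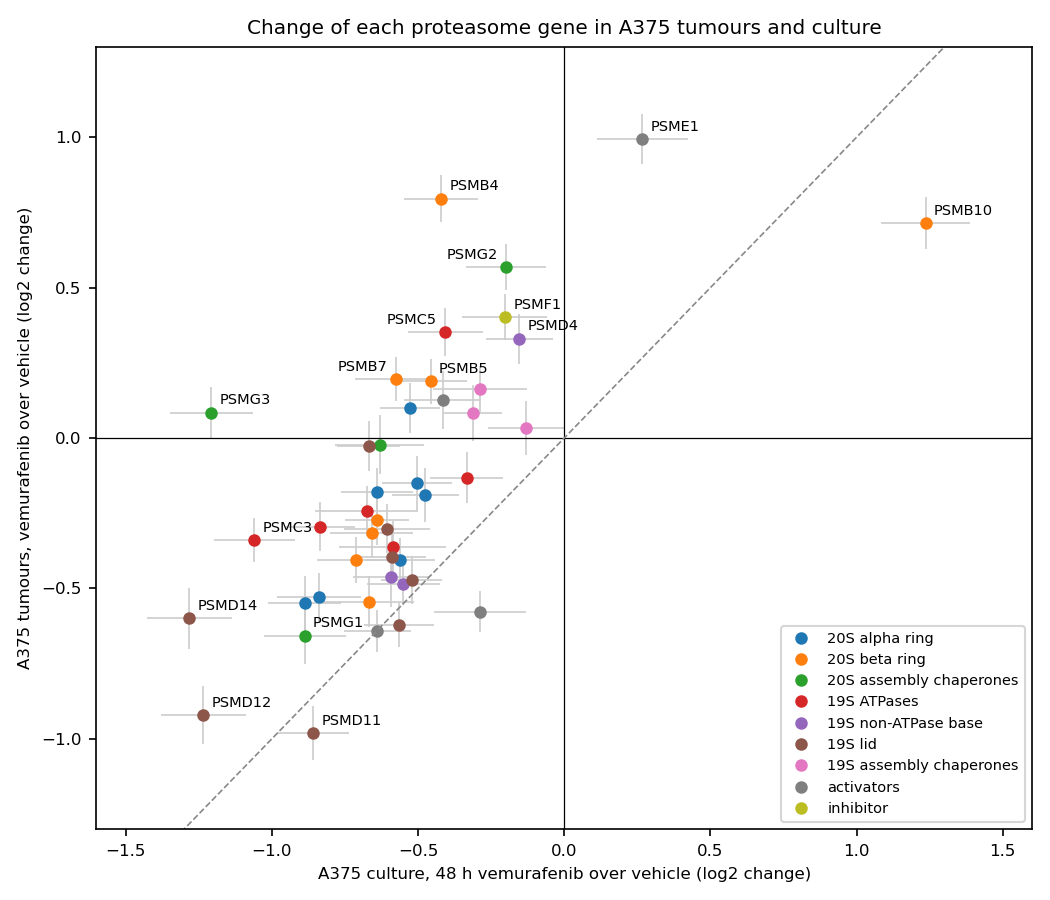
Log2 change of the 44 genes under vemurafenib in A375 tumours (vertical) against A375 culture at 48 h (horizontal), coloured by role, with SE whiskers, and the dashed line marking equal change. Most points lie above the dashed line, and 15 genes lie above 0 in tumours and 2 in culture. Of the 9 genes that rose past the threshold in tumours, PSMB4, PSMG2, PSMC5, PSMF1, PSMD4, PSMB7 and PSMB5 lie below 0 in culture. The others, PSMB10 and PSME1, lie above 0 in both.

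Between A375 culture at 48 h and A375 tumours, 31 of the 44 genes had log2 changes of the same sign, and Pearson's r across the genes was 0.67 (0.67 also without PSMB10). Of the 13 genes that fell in all 4 cultures, 10 fell in the tumours too: PSMB2, PSMB3, PSMB6, PSMC3, PSMC4, PSMD2, PSMD11, PSMD12, PSMD14 and PSME3. These 10 were 22.7% of the 44, against 7.67% of all genes. Among all genes, 905 of the 1119 that fell in all 4 cultures fell in the tumours too. Falling in the tumours after falling in all 4 cultures was thus no more common in the 44 genes than in all genes. PSMB4, PSMB5, PSMB7 and PSMC5 fell in A375 culture and rose in A375 tumours. For PSMB4 the log2 changes were 0.80 in tumours and -0.42 in culture, for PSMC5 0.35 and -0.41, for PSMB7 0.20 and -0.58 and for PSMB5 0.19 and -0.46. Culture and tumour RNA also differ in dose, time and the way RNA was drawn (ribosome-bound against whole-cell), so these cannot be told apart, and the difference itself was not tested because the tables were normalised separately.

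In A375R tumours limma called few or no proteasome genes under vemurafenib, and few genes of any kind. In tumours of A375R alone limma called 0 of 44 genes, against 0.792% of all genes tested, with 7 at an unadjusted p under 0.05, and edgeR called 0 and DESeq2 1. Log2 changes were positive for 36 of the 44 genes, with a median of 0.11, against 0.01 over all genes. PSMD14 had 2808, 2832 and 2487 normalised reads under vemurafenib, against 2738, 2398 and 2243 under vehicle, and the groups overlapped (log2 change 0.14 ± 0.10, SE, limma adjusted p = 0.461). PSMB10 had 2259, 1801 and 1593 normalised reads under vemurafenib, against 1732, 1561 and 1555 under vehicle, overlapping as well (log2 change 0.21, adjusted p = 0.46). The summed level of the 8 leukocyte genes, of which 3 reached a mean of 10, was 3845 to 5999 normalised reads under vemurafenib and 7579 to 9759 under vehicle in these tumours, and 5115 to 8301 under vemurafenib and 3412 to 5054 under vehicle in mixed tumours. CD68 made up most of each sum, and LYZ went the other way, at 17.7 to 39.4 under vemurafenib and 11.2 to 13.96 under vehicle in A375R alone, and 16.2 to 23.0 under vemurafenib and 31.1 to 55.4 under vehicle in mixed tumours. The summed level of the 6 fibroblast genes, none of them at 0, was 2241 to 3073 under vemurafenib and 1169 to 1447 under vehicle in tumours of A375R alone, and 2805 to 2991 under vemurafenib and 1089 to 1905 under vehicle in mixed tumours. COL1A1 made up most of these fibroblast sums, at 2103 to 2957 under vemurafenib and 1083 to 1324 under vehicle in A375R alone. The other fibroblast genes overlapped between drug and vehicle in A375R alone, and all of them but DCN, which was higher under vemurafenib, overlapped in mixed tumours. Their part in the values was not tested.

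In mixed tumours PSMB7 was the only gene of the 44 called by limma, against 1.24% of all genes called higher and 3.48% called in either direction, and 8 genes had an unadjusted p under 0.05. PSMB7 had 8819, 9169.7 and 9148 normalised reads under vemurafenib, against 6488, 7260.0 and 7524 under vehicle. The groups did not overlap, and the log2 change was 0.35 ± 0.09 (SE, limma adjusted p = 0.0454), so the value stood just inside the threshold. The call was lost when any 1 library of the pair of groups other than vehicle replicate 3 was left out, with no filter, with quantile normalisation, with the replicate block, and in edgeR, while DESeq2 called 3 genes. PSME1 had 3969, 4455 and 4404 normalised reads under vemurafenib, against 2757, 3603 and 3619 under vehicle, without overlap but short of the threshold (log2 change 0.37, limma adjusted p = 0.0805). PSMD14 had 2583, 2676 and 2545 normalised reads under vemurafenib, against 2286, 2377 and 2357 under vehicle, a small shift that did not pass (log2 change 0.15, adjusted p = 0.391).

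Between mixed and A375R-alone tumours limma called none of these genes, and few genes of any kind. Under vemurafenib limma called 0 of 44 between them, against 0.240% of all genes, with 2 at an unadjusted p under 0.05. Under vehicle it called 0, against 3.30%, with 3 at an unadjusted p under 0.05. For the difference in drug response, mixed minus alone, it called 0, against 2.89%, with 7 at an unadjusted p under 0.05. EdgeR and DESeq2 called 0 in each of the 3. The largest difference in drug response was that of PSME1, at 0.42 ± 0.16 on the log2 scale (SE, limma adjusted p = 0.169). SPRY4 fell by 0.81 in mixed tumours and had a log2 change of -0.39 in tumours of A375R alone (adjusted p = 0.122), and the difference between them had an adjusted p of 0.215. Of the 8 melanocyte genes 4 reached a mean of 10 in the A375R table. The sum over all 8 was 612 to 758 normalised reads under vemurafenib and 1030 to 1502 under vehicle in mixed tumours, and 407 to 747 under vemurafenib and 434 to 771 under vehicle in A375R alone, with TYR at 0 in all 4 groups. SOX10, the melanocyte transcription factor, had 91.7, 254 and 59.5 normalised reads under vemurafenib and 1021, 508 and 837 under vehicle in mixed tumours, and fell by 2.75 (limma adjusted p = 0.00863). S100B, another of the 8, fell by 1.54 there (limma adjusted p = 0.0159), and the part of these shifts in the values of the proteasome genes was not tested. The A375R comparisons share libraries, so their values are given beside each other only.

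Proteasome genes under other names gave a like picture. Of 10 such genes 6 fell in A375 culture at 48 h, 9 in Colo800, 5 in UACC62, 6 in H3122 and 5 in A375 tumours, with 1, 1, 1, 1 and 3 higher. POMP, which helps the precursors of the core to join, had 1563, 2038 and 1856 normalised reads at 48 h in A375 culture, against 3691, 2954 and 4232 under vehicle, and fell by 0.99 ± 0.15 (SE, limma adjusted p = 0.000322). POMP fell by 0.87 in Colo800, 0.57 in UACC62, 0.65 in H3122 and 0.51 in A375 tumours. UCHL5, a deubiquitinase that docks on the cap, fell by 1.25 in A375 culture, 0.95 in Colo800, 1.12 in UACC62, 0.42 in H3122 and 0.83 in A375 tumours. USP14, another deubiquitinase of the cap, fell by 0.80, 0.42, 0.31, 0.58 and 0.26 in the same order. PAAF1, an assembly chaperone of the ATPase ring, went the other way and rose by 0.65 in A375 culture, 0.32 in Colo800, 0.33 in H3122 and 0.53 in A375 tumours, with a log2 change of -0.08 in UACC62 (adjusted p = 0.623).

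The inducible catalytic subunits outside the 44 genes, PSMB8 and PSMB9, rose along with PSMB10 in A375 culture at 48 h and in A375 tumours. PSMB8 had 664, 889 and 852 normalised reads at 48 h in A375 culture, against 524, 528 and 597 under vehicle, and rose by 0.54 ± 0.13 (SE, limma adjusted p = 0.00608). PSMB9 had 261, 299 and 271 normalised reads at 48 h, against 111, 158 and 172 under vehicle, and rose by 0.93 ± 0.19 (SE, limma adjusted p = 0.00212). Both were without overlap. In A375 tumours PSMB8 rose by 0.30 and PSMB9 by 0.32, the groups overlapping for PSMB9. In Colo800 PSMB8 fell by 0.18, and PSMB9 did not pass (log2 change -0.06, adjusted p = 0.531). Neither passed in UACC62, H3122 or A375R tumours.

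NFE2L1, the known activator of the subunit genes, rose by 0.52 in A375 culture at 48 h and by 0.21 in A375 tumours, fell by 0.36 in Colo800, and did not pass in UACC62 (log2 change 0.12) or H3122 (0.18). Of the 8 genes of transcription factors known to act on the proteasome genes and of the proteins that process them, 2 rose and 3 fell in A375 culture at 48 h, 0 and 6 in Colo800, 3 and 1 in UACC62, 0 and 4 in H3122 and 3 and 3 in A375 tumours. NFE2L2 rose by 0.55 in A375 culture, 0.50 in UACC62 and 0.43 in A375 tumours and fell by 0.10 in Colo800 and 0.51 in H3122. MAFF, a small partner protein of both factors, fell by 2.25 at 6 h in A375 culture, when none of the 44 genes passed, and fell by 2.79 at 48 h. The chaperonin CCT, a ring that folds newly made actin and tubulin and served as another large complex, fell in 8 of 8 genes in each of the 4 cultures at 48 h, with median log2 changes of -1.11 in A375, -0.73 in Colo800, -0.99 in UACC62 and -0.50 in H3122. CCT5, a subunit of that ring, had log2 changes of -1.35 in A375 culture, -1.03 in Colo800, -1.36 in UACC62 and -0.72 in H3122, all of them past the threshold. In A375 tumours 2 of the 8 rose and 4 fell.

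Lists of related genes were small, and their counts stand against 25.6% of all genes lower and 24.3% higher in A375 culture at 48 h, 37.3% and 36.0% in Colo800, 29.6% and 26.9% in UACC62, 24.0% and 22.1% in H3122, and 34.0% and 34.2% in A375 tumours. In A375 tumours the counts of shuttle factors, of p97 with its adaptors and of the COP9 signalosome were near or under these shares. So were those of p97 with its adaptors and of the COP9 signalosome in UACC62, and of shuttle factors in Colo800. With lists this small, other counts can lie near the shares as well. Of 7 shuttle factor genes tested, 3 fell in A375 culture at 48 h, 3 in Colo800, 3 in UACC62, 4 in H3122 and 2 in A375 tumours, with 1, 3, 2, 0 and 2 higher. RAD23B, a shuttle that carries ubiquitin chains to the cap, fell by 0.86 in A375 culture, 0.72 in Colo800, 0.46 in UACC62, 0.45 in H3122 and 0.48 in A375 tumours. ZFAND5, a proteasome-binding zinc finger protein, rose by 0.30 in A375 culture, 0.95 in Colo800, 1.04 in UACC62 and 0.55 in A375 tumours. Of 8 genes of p97, the ATPase that pulls ubiquitin-tagged proteins out of complexes, and its adaptors, 4 fell in A375 culture, 4 in Colo800, 2 in UACC62, 5 in H3122 and 3 in A375 tumours, with 0, 2, 2, 1 and 2 higher. UFD1L, an adaptor of p97, fell by 0.73 in A375 culture, 0.81 in Colo800 and 0.50 in H3122, whereas UBXN1, another adaptor, rose by 0.43 in Colo800, 0.48 in UACC62, 0.44 in H3122 and 1.25 in A375 tumours.

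Of 8 genes of ubiquitin and of the enzymes that activate it and related modifiers, 4 fell in A375 culture at 48 h, 4 in Colo800, 5 in UACC62, 4 in H3122 and 4 in A375 tumours, with 0, 1, 2, 0 and 3 higher. RPS27A, which encodes ubiquitin fused to a ribosomal protein, rose by 0.67 in A375 tumours. UBA6, an activating enzyme, fell by 0.86 in A375 culture, 0.88 in UACC62, 0.44 in H3122 and 0.74 in A375 tumours. The COP9 signalosome, a complex built like the lid, fell in 4 of 9 genes in A375 culture, 5 in Colo800, 2 in UACC62, 6 in H3122 and 3 in A375 tumours, with 0, 1, 0, 0 and 3 higher. COPS3, one of its subunits, fell by 0.88 in A375 culture, 0.50 in Colo800, 0.39 in UACC62, 0.41 in H3122 and 0.29 in A375 tumours. Of 9 known NRF2 targets, 0 rose and 2 fell in A375 culture, 2 and 6 in Colo800, 7 and 1 in UACC62, 1 and 7 in H3122 and 1 and 6 in A375 tumours. HMOX1, which degrades haem, rose by 1.46 in Colo800 and 3.02 in UACC62 and fell in A375 tumours, at 65.6 to 77.7 normalised reads under vemurafenib and 129 to 191 under vehicle. SLC7A11, the cystine transporter, fell by 1.83 in A375 culture, 1.63 in Colo800, 0.71 in UACC62 and 2.70 in H3122.

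Libraries were made with a kit that does not mark strand, so reads of a gene and of one that overlaps it cannot be told apart, and copies can share reads. In the gene table of RefSeq on GRCh38.p14, overlaps with another gene are listed for 18 of the 44 genes, named pseudogene copies for 21 and both for 10. PSMC1, with 13 copies and an overlap with NRDE2, is the least certain of them, and PSMD14 and PSMB7 have 1 copy each and overlap other genes.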

How the data were processed

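The authors deposited 6 tables of normalised reads per gene, 1 for each experiment, with 1 column per library (a signal that is never negative). Per the submitters' processing notes STAR 2.3.0e, HTSeq 0.5.4 and DESeq 1.18.0 were used with builds hg19 and mm9, with no roles given. Per the labels' protocols the TruSeq kit was version 2, which does not mark strand. Of the values 100% were, in each table, whole multiples of 1 size step per library within 0.1 reads, so reads were recovered for depth (8063754 to 42843612 per library), edgeR and DESeq2. Libraries of a group were compared by chi-square per degree of freedom over genes, which is near 1 where they differ by counting error alone. It was 1.75 and 1.77 in the Colo800 groups and 1.30 in UACC62 vehicle, so counting error made up much of the spread there. In the other groups it was 3.47 to 52.8, and there the spread between libraries beyond counting error sets the precision.

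Groups came from the sample labels. Genes with a table mean of at least 10 were tested with limma 3.58.1 (trend, R 4.3.3) on log2(value + 1), with all groups of a table in 1 fit, two-sided, with Benjamini-Hochberg adjustment over all genes of the table at 0.05. The pseudocount of 1 understates changes of low genes. Alternatives were pseudocounts of 0.5 and 5, no filter, a mean of 50, quantile normalisation, a replicate block, only the 2 groups compared, each library left out, edgeR 4.0.16 and DESeq2 1.42.0. The fits were tested on simulated data, and tables were summarised with Python 3.11.15 and pandas 2.3.3. No mapped column was left out.

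Replicate numbers were checked for pairing by the correlation of deviations from the group means. By that check they paired A375 culture vehicle with 6 h (0.310 to 0.567) and 6 h with 48 h (0.197 to 0.436), but not vehicle with 48 h (lowest pair 0.0280), and nowhere else did every pair pass 0.1. The labels do not call the replicates separate cultures or mice, and the p-values therefore reflect only how far these libraries differ, possibly for technical reasons.

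The 44 genes and the gene lists were chosen with earlier results of these data known. Named with values are always PSMB5, PSMB6, PSMB7, PSMB10, PSME1, PSME2, PSMD14 and PSMG1, then in each comparison the 3 largest called changes in each direction, the genes called in opposite directions in separate tables, and of related lists genes among the 2 with the smallest adjusted p in each direction, with every gene of lists of at most 6. Other genes named with values were chosen after their values were seen. Promoters came from the RefSeq table on GRCh38.p14, and its gene table served for overlaps and copies.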

Additional observations from a re-analysis of the deposited data

Results flagged for a closer look

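In A375 tumours 4 of 88 gene and group pairs held a library set apart from the other 3, where chance gives about 1 in 20. The gap to the nearest library, as a fraction of the range of the group, was 0.885 for PSMC5 (5212 normalised reads in vemurafenib replicate 1 and 4389 to 4484 in the others), 0.853 for PSMD5 (634 in vemurafenib replicate 1 and 516 to 533 in the others), 0.950 for PSMD9 (1203 in vemurafenib replicate 3 and 1275 to 1279 in the others) and 0.929 for PSMB6 (1413 in vehicle replicate 3 and 1738 to 1763 in the others). Vehicle replicate 3 was also the library with 25467614 reads.

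Some of the 44 genes had log2 changes of opposite sign under vemurafenib in 2 tables, with every treated library on one side of every vehicle library. The difference itself was not tested, because the tables were normalised separately. PSMB4 had log2 changes of 0.80 in A375 tumours and -0.42 in A375 culture at 48 h, PSMC5 of 0.35 and -0.41, and PSMG2 of 0.57 and -0.20. PSMC1 had log2 changes of 0.16 in UACC62, -0.59 in A375 culture and -0.55 in Colo800. PSMC2 had 0.21 in UACC62, -0.33 in A375 culture and -0.30 in Colo800, and PSMF1 had -0.069 in UACC62 and 0.34 in Colo800. In UACC62 PSMC1, PSMC2 and PSMF1 did not pass limma's threshold.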

How the results depend on the processing

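Over 158 values of the named genes, 65 of them past the threshold, 2327 alternative values were computed. Of these 2222 kept their direction and their side of the threshold, 77 lost the threshold, 27 gained it and 1 reversed: PSMB4 in UACC62, at log2 changes of -0.20 without treated replicate 1 and 0.15 without treated replicate 2, against -0.02 (limma adjusted p = 0.881) with all libraries, and the cause was not tested. With 1 library left out, the number of the 44 genes past the threshold was 7 to 37 in UACC62 (20 with all), 33 to 36 in A375 culture at 48 h, 26 to 31 at 48 h against 6 h, 40 to 43 in Colo800, 29 to 34 in H3122, 30 to 34 in A375 tumours, 0 to 1 in mixed A375R tumours, and 0 in the other comparisons. In mixed tumours the single call of PSMB7 became 0 with no filter, quantile normalisation, the replicate block, only the 2 groups compared and edgeR, and 3 with DESeq2, which also called 1 gene in A375R alone. The replicate block otherwise gave 38 genes in A375 culture at 48 h and 38 at 48 h against 6 h, 43 in Colo800, 22 in UACC62, 29 in H3122 and 30 in A375 tumours, each within 1.5 times the count without it. In H3122 the deviations of same-numbered libraries had a correlation of -0.21, and the crossed block, added after seeing the data, gave 38. On recovered reads edgeR called 36 of the 44 genes in A375 culture at 48 h (6896 of all genes), 43 in Colo800 (9964), 18 in UACC62 (7824), 34 in H3122 (6471) and 33 in A375 tumours (9675). Quantile normalisation moved the median of all genes by 0.10 in Colo800 and 0.08 in UACC62, and by at most 0.04 elsewhere. With 2 libraries a group in Colo800, UACC62 and H3122, the spread rests on few samples.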

Other observations

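Under vehicle, some proteasome genes stood at other levels in H3122 than in the 3 melanoma cultures. On the RPM scale, each gene against itself in the other lines, PSMA6 had 1152 RPM in H3122 and at most 121 in a melanoma line, a ratio of 9.49. The ratio was 4.49 for PSMD4 and 1.88 for PSMB4. Among the genes up to 8 places from PSMA6 in the RefSeq gene order, ratios ran from 3.84 for CFL2 to 616 for NKX2-1, with SNX6 at 13.8 and NFKBIA at 11.9. Near PSMB4 and PSMD4 they ran from 1.64 for SEMA6C to 119 for CGN, with RFX5 at 1.89, VPS72 at 6.57 and PIP5K1A at 5.87. PSMD6 stood lowest, at a ratio of 0.190 to the highest melanoma line. These genes were picked after their values were seen, and no test was run between lines.

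PSMC1, the gene with the most named pseudogene copies of the 44, had group means of 75.8 to 444 normalised reads in the 5 other tables and 3619 to 3911 in the table of A375R tumours. The A375R table lists 21595 genes and the others 23368, and the tables were normalised separately.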
